A study of Homo sapiens with 12 samples.

Results

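The transcripts of the 5 IKAROS family genes, IKZF1 to IKZF5, and of IRF4 and MYC were followed in OPM-1 cells, a human multiple myeloma cell line, after exposure to lenalidomide and to an inhibitor of the RUNX transcription factors. The 7 genes were chosen by name, and all 7 were found among the 38478 genes of the expression table. Each of the 4 conditions held 3 samples of polyA RNA, which the study describes as independent experiments. The conditions were DMSO, the vehicle control, 0.1 μM lenalidomide (LEN), 1 μM AI-10-104, and both compounds together (LEN+AI-10-104), each for 48 h. All samples came from the same cell line, so the values describe OPM-1 cells and no other myeloma cells. The study counts OPM-1 among the lenalidomide-insensitive lines.

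Lenalidomide binds cereblon (CRBN), the substrate receptor of a CUL4 ubiquitin ligase, and directs the ligase to the zinc finger proteins IKZF1 (IKAROS) and IKZF3 (AIOLOS), which are then degraded. In plasma cells and myeloma cells both proteins act upstream of IRF4, a transcription factor on which myeloma cells depend for survival, and IRF4 and MYC sustain one another's expression. The loss of IKZF1 and IKZF3 happens at the level of protein, whereas RNA sequencing reads the level of their messages, so the values given here are of transcripts and hold no measurement of protein. The related genes IKZF2 (HELIOS), IKZF4 (EOS) and IKZF5 (PEGASUS) encode the other family members.

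The deposited unit was RPKM, reads scaled to the length of the gene and to the total reads of the sample, so levels can be compared between genes within the limits of the gene length used. Between 16352548 and 31386210 reads per sample fell on genes. The cells carried the plasma cell markers, with XBP1 at 444 to 654 RPKM and SDC1, the syndecan that marks plasma cells, at 133 to 156 RPKM across the 12 samples. Of the 4 markers each for B, T, myeloid and epithelial cells none reached a mean of 0.5 RPKM. PAX5, CD22, CD3D, EPCAM, CDH1 and KRT19 had 0 reads in all 12 samples, and the highest of these markers, CD3E, reached 19 reads. The summed level of the plasma cell markers was 1226 to 1289 RPKM with DMSO, 1178 to 1212 RPKM with LEN, 1392 to 1441 RPKM with AI-10-104 and 1251 to 1301 RPKM with the combination. By this sum the LEN samples were below and the AI-10-104 samples above those of DMSO. XBP1 was its largest part, at 509 RPKM with DMSO, 456 with LEN and 632 with AI-10-104. In the limma fit described below, none of the 8 markers passed the adjusted p with LEN. At an unadjusted p under 0.05, 2 were higher and 3 lower with LEN, beside 1206 of 11241 genes in either direction. With AI-10-104, XBP1 and SLAMF7 rose, and the log2 fold changes of the 8 ran from -0.06 to 0.69. AI-10-104 replicate 2 stood apart in its bearing on gene counts. With it, 77 genes were called higher and 122 lower with AI-10-104 than with DMSO, and without it 144 and 299.

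The start of IRF4 and the first start of IKZF1 are shown because IRF4 is the gene that the IKAROS proteins are held to control and IKZF1 the drug target itself. Each window runs from 250 bases before to 50 bases after a RefSeq start site on GRCh38.p14, written 5′ to 3′ on the strand of the gene. Capitals mark the IKAROS core motif TGGGAA or its reverse complement. The IRF4 window lies at chr6:391502-391801 on the plus strand and the IKZF1 window at chr7:50304466-50304765 on the plus strand.

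IRF4: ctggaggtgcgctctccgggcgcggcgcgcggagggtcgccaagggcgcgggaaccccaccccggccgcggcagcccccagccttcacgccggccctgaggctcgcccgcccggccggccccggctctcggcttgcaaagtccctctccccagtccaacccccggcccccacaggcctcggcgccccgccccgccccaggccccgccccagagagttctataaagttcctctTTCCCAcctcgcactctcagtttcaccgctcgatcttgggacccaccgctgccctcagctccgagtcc

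IKZF1: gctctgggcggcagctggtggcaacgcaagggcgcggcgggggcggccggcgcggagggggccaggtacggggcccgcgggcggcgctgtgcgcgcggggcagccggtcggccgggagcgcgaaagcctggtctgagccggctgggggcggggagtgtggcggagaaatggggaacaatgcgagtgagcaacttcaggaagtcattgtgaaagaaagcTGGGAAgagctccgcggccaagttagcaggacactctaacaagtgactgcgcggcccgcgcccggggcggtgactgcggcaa

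Both windows held 1 match to TGGGAA, 18 bases before the start site in IRF4 and 32 bases before it in IKZF1. Of the 11 windows searched only these held the motif, and the windows at the other start sites of IKZF1 did not. Among 35116 RefSeq promoters of the same length, 24% held this motif on either strand, so a match was common. The RUNX core motif TGTGGT, present in 13.1% of all promoters, was absent from both windows. It occurred 144 bases before the second start site of IKZF1, 35 bases before a start site of IKZF5, and 246 and 148 bases before a start site of IKZF2. The alternative RUNX core TGCGGT (7.29% of promoters) and the MYC E-box CACGTG (7.26%) were found in none of the 11 windows searched. These belonged to 5 members (IKZF1, IKZF2, IKZF4, IKZF5 and IRF4). The windows of MYC were left out of the search, and IKZF3 had no entry. None of the motifs overlaps another in these windows. A match is a run of letters and no measurement of binding.

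With DMSO, IRF4 and MYC were at almost the same level and far above the IKAROS genes. IRF4 measured 208.8 ± 11.96 RPKM and MYC 208 ± 11.9 RPKM (SD, n = 3), and their samples overlapped. By the mean over all 12 samples IRF4 ranked 232nd and MYC 234th of the 38478 genes. IKZF3 followed at 22.9 ± 0.47 RPKM, IKZF1 at 13.3 ± 0.21 RPKM and IKZF5 at 7.71 ± 0.41 RPKM. IKZF4 was low at 1.42 ± 0.068 RPKM. IKZF2 was lowest at 0.457 ± 0.021 RPKM, with 126 to 266 reads per sample. Apart from IRF4 and MYC, no neighbours in this order had overlapping samples.

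The order rests in part on the gene length by which reads were divided. For IKZF1 the deposited length was 18786 bases, which is 3.003 times the 6255 bases of its canonical transcript in GENCODE 44 and more than the 10921 bases that all its annotated exons cover together. For MYC the deposited length of 2366 bases was shorter than the canonical 3721 bases. With canonical lengths, a calculation added after the values were seen, IKZF1 stood at 39.9 ± 0.64 RPKM with DMSO and IKZF3 at 23.4 ± 0.48 RPKM, so that these 2 changed places. MYC then stood at 132 ± 7.58 RPKM and IRF4 at 215 ± 12.3 RPKM. The ratio of a gene's RPKM between conditions does not depend on the length, whereas a filter on mean RPKM and a pseudocount do. IKZF2 stood at 0.836 RPKM with its canonical length.

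**Figure D1:**
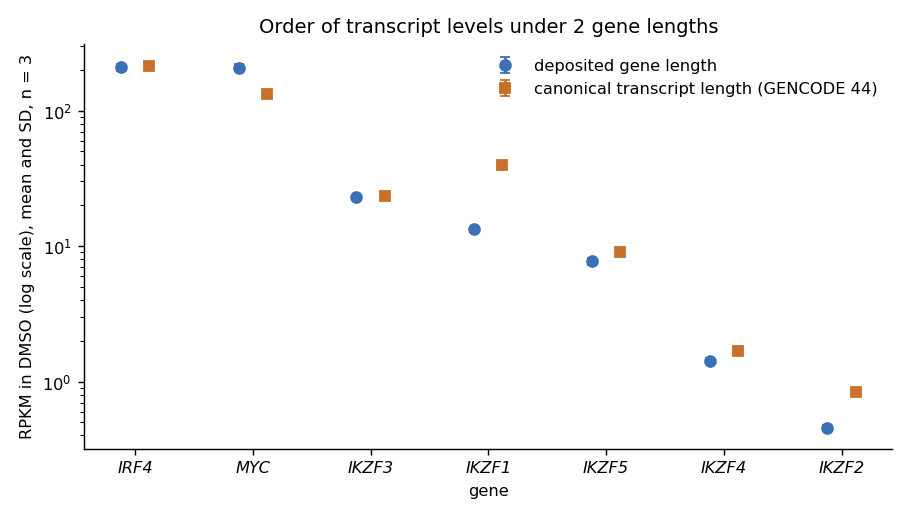
Mean RPKM with SD (n = 3) of the 7 genes in the DMSO samples on a log axis, computed with the deposited gene length (circles) and with the canonical transcript length of GENCODE 44 (squares); most SD bars are smaller than the symbols. IKZF1 lies below IKZF3 at 13.3 against 22.9 RPKM with the deposited length and above it at 39.9 against 23.4 RPKM with the canonical length, and IRF4 and MYC separate.

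By the annotation, IKZF1 (ENSG00000185811) lies on chromosome 7 at 50304068 to 50405101 on the plus strand of GRCh38. IKZF3 (ENSG00000161405) lies on chromosome 17 at 39757718 to 39864312 on the minus strand, and IRF4 (ENSG00000137265) on chromosome 6 at 391739 to 411443 on the plus strand. IKZF2 lies on chromosome 2, IKZF4 on chromosome 12, IKZF5 on chromosome 10 and MYC on chromosome 8. The coordinates are those of GENCODE 44, and the deposited table holds symbols and lengths only. Annotated genes on the opposite strand overlap IKZF5 (PSTK, 1.06 RPKM) and MYC (CASC11, 0.0235 RPKM), and unnamed long noncoding RNAs without a row in the table overlap IKZF1, IKZF2 and IKZF4 on the opposite strand. The library kit kept strand, but the strand setting of the counting is not given in the sources used here, so reads of such pairs may not be separated.

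Differences between conditions were tested with limma on log2(RPKM + 0.1) over the 11241 genes whose mean RPKM was 0.5 or more, and p-values were adjusted over all of these genes by the Benjamini-Hochberg method. A gene is said to have risen or fallen where its adjusted p was at most 0.05, and to have been called where its log2 fold change was also at least 0.32 in size. On this scale the fold changes of the lowest genes, IKZF2 and IKZF4, are understated. IKZF2 did not reach 0.5 RPKM and was tested only among the 24115 genes with any value above 0, which leaves 6 members in the counts that follow. The 3 comparisons against DMSO share the DMSO samples, and the comparisons of the combination share the combined samples.

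Between the conditions of the planned comparisons the 7 transcripts moved little. In none of the 5 comparisons of conditions was any of the 6 tested members called. The largest fitted difference was the fall of IKZF3 with AI-10-104, to 0.811 of the DMSO level. IKZF1 was somewhat higher with every treatment, and IRF4 overlapped with DMSO under all treatments. MYC was lower with LEN and higher with AI-10-104 without passing the adjusted threshold of the limma fit described above in either.

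**Figure D2:**
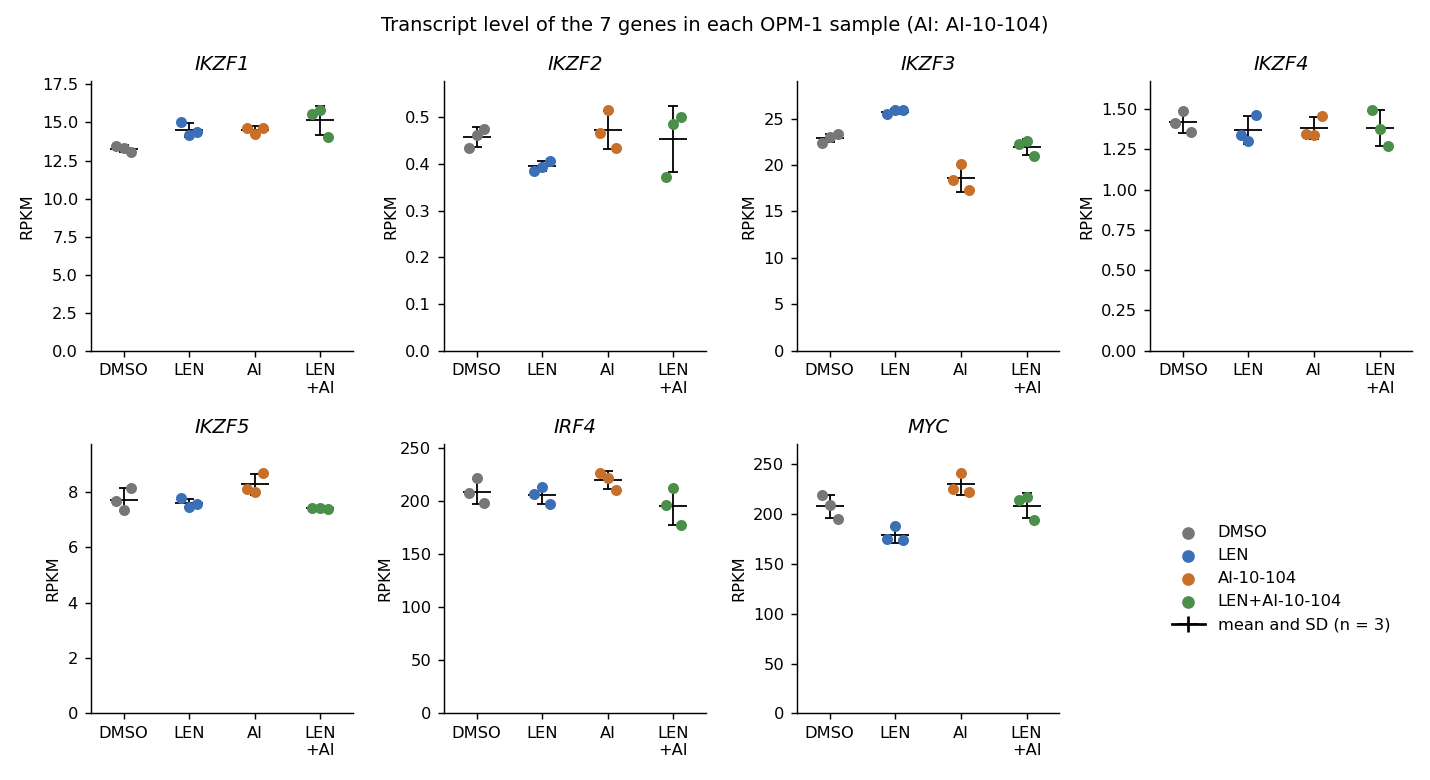
RPKM of each gene in each of the 12 OPM-1 samples by condition (AI: AI-10-104); points are samples, and the black bars give the mean and SD (n = 3), each panel with its own axis from 0. IKZF3 is highest with LEN (25.5 to 25.9 RPKM) and lowest with AI-10-104 (17.3 to 20.1 RPKM), MYC is lowest with LEN (174 to 188 RPKM), and the IRF4 samples of LEN, of AI-10-104 and of the combination each overlap those of DMSO.

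The first question was whether 0.1 μM LEN alters the messages of its own targets and of the genes downstream. Of the 6 members tested, 0 were called and 0 passed the adjusted p alone, against backgrounds of 0.649% of all genes called and 1.13% past the adjusted p. At an unadjusted p under 0.05 there were 3 (IKZF1, IKZF3 and MYC), beside 1206 of the 11241 genes tested. In the voom analysis of the reads 2 passed, IKZF3 upward and MYC downward, beside 202 genes upward and 25 downward. In 3 of the 6 the LEN and DMSO samples did not overlap, which held for 16.4% of all genes.

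IKZF1, whose protein is the target of the drug, measured 13.46, 13.35 and 13.04 RPKM with DMSO and 15.01, 14.16 and 14.35 RPKM with LEN. All 3 LEN samples lay above all 3 DMSO samples. The log2 fold change was 0.13 (95% interval 0.03 to 0.23, adjusted p = 0.295).

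The other target, IKZF3, measured 22.4, 23.0 and 23.3 RPKM with DMSO and 25.5, 25.9 and 25.9 RPKM with LEN. These groups did not overlap either, with LEN above. The log2 fold change was 0.17 (95% interval 0.06 to 0.28, adjusted p = 0.185), and 0.17 with adjusted p = 0.0456 in voom. For neither target was the message lower with LEN.

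IRF4 measured 207, 222 and 198 RPKM with DMSO and 206, 213 and 197 RPKM with LEN. The samples were interleaved. The log2 fold change was -0.02, with a 95% interval from -0.16 to 0.11 and an adjusted p of 0.959, so that a fall of IRF4 message below 0.896 of its control level lay outside the interval at this dose and time.

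MYC measured 219, 209 and 195 RPKM with DMSO and 175, 188 and 174 RPKM with LEN. Every LEN sample was below every DMSO sample. The log2 fold change was -0.21 (95% interval -0.34 to -0.09), which is 0.862 of the control level, with an adjusted p of 0.116 in limma and 0.0141 in voom. Replicate 3 was the lowest in both conditions. With a term for the replicate number in the limma fit (a replicate block), MYC passed at an adjusted p of 0.0310. IKZF5 (log2 fold change -0.02), IKZF4 (-0.05) and IKZF2 (-0.17, adjusted p = 0.850) did not pass, and the interval of IKZF2 ran from -0.46 to 0.13.

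AI-10-104 alone was compared with DMSO to ask whether blocking the RUNX proteins alters the same messages. One of the 6 members passed the adjusted p (IKZF3, downward), and 0 were called, against 4.55% and 1.77% of all genes. At an unadjusted p under 0.05 there were 3, beside 2457 of the 11241 genes tested. In 3 members the samples did not overlap, as in 23.3% of all genes.

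IKZF3 measured 18.3, 20.1 and 17.3 RPKM with AI-10-104, each below the lowest DMSO sample of 22.4 RPKM. It fell by 0.30 on the log2 scale (95% interval -0.41 to -0.19, adjusted p = 0.00705). Without AI-10-104 replicate 2, its highest sample, IKZF3 was called, with a log2 fold change of -0.36 and an adjusted p of 0.000587. When only the DMSO and AI-10-104 samples entered the fit, the adjusted p was 0.0555.

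MYC measured 226, 242 and 223 RPKM with AI-10-104, each above the highest DMSO sample. The log2 fold change was 0.15 (95% interval 0.02 to 0.27, adjusted p = 0.153). IKZF1 measured 14.7, 14.2 and 14.7 RPKM and was also above all DMSO samples, with a log2 fold change of 0.13 (adjusted p = 0.133). IRF4 measured 227, 222 and 210.3 RPKM and overlapped with DMSO, with a log2 fold change of 0.07 (95% interval -0.06 to 0.21, adjusted p = 0.531). IKZF5 measured 8.104, 8.002 and 8.687 RPKM against 7.66, 7.33 and 8.15 RPKM with DMSO, a log2 fold change of 0.10 (adjusted p = 0.241).

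**Figure D3:**
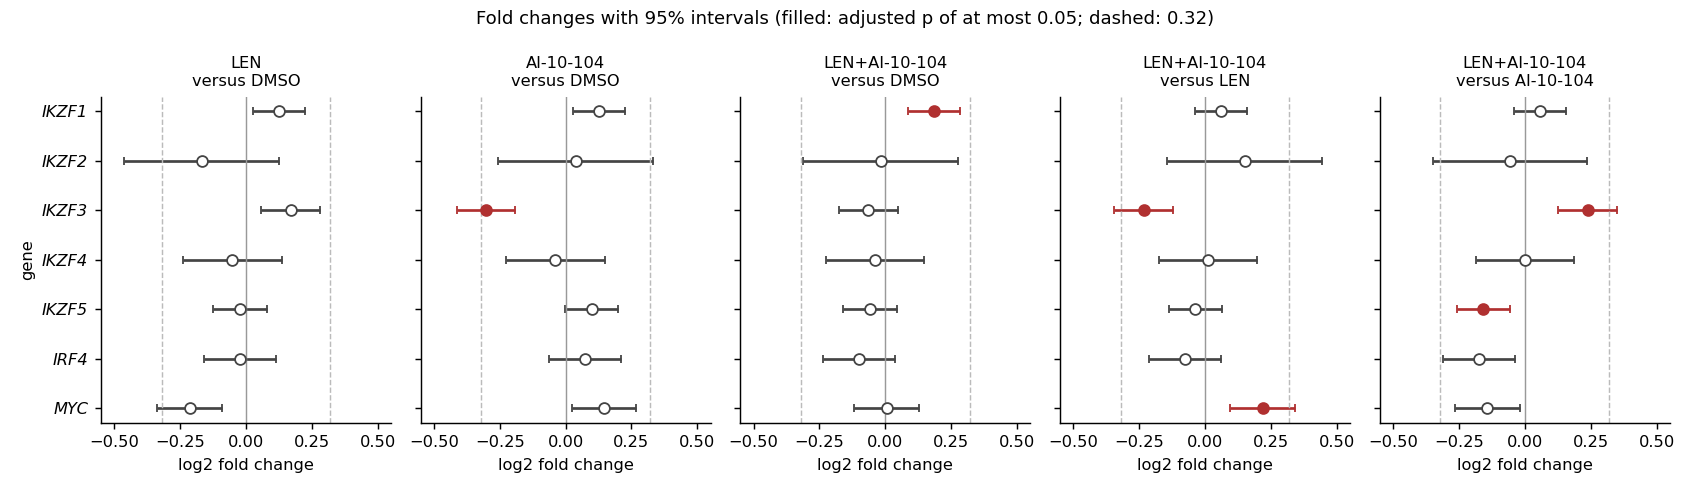
Log2 fold changes on the log2(RPKM + 0.1) scale with 95% intervals for the 7 genes in the 5 planned comparisons; filled points passed an adjusted p of 0.05, and dashed lines mark 0.32 in either direction. IKZF2 is from the fit over all genes with a value above 0. No point lies beyond a dashed line, and the filled points are IKZF1 in the combination against DMSO, IKZF3 in 3 comparisons, IKZF5 in the combination against AI-10-104 and MYC in the combination against LEN.

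Because LEN and AI-10-104 placed IKZF3 and MYC on opposite sides of DMSO, these conditions were also compared directly, a comparison added after the values were seen and so of less weight than the others. In it 2 of the 6 members passed the adjusted p and both were called, beside 13.8% and 3.97% of all genes. IKZF3 was lower with AI-10-104 than with LEN by a log2 fold change of -0.47 (95% interval -0.58 to -0.36, adjusted p = 0.00016), at 0.721 of the LEN level. MYC was higher by 0.36 (95% interval 0.24 to 0.48, adjusted p = 0.00173), at 1.28 times the LEN level. The samples of both genes were separate. Both were called in all 6 fits that left out 1 LEN or AI-10-104 sample. IRF4 (0.10, 95% interval -0.04 to 0.23), IKZF1 (0.00, -0.10 to 0.10), IKZF4 (0.01, -0.17 to 0.20) and IKZF5 (0.12, 0.02 to 0.22) did not pass the adjusted threshold.

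The combination is the treatment in which the study looked for a stronger response than with either compound. Against DMSO, 1 of the 6 members passed the adjusted p (IKZF1, upward) and 0 were called, beside 8.64% and 2.94% of all genes. In 1 of the 6 the samples did not overlap, against 29.2% of all genes. The 1 member at an unadjusted p under 0.05 was the same IKZF1, beside 2659 of the 11241 genes tested. IKZF1 also passed in voom, where 761 genes passed upward and 408 downward.

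IKZF1 measured 15.5, 15.8 and 14.1 RPKM with the combination, all above the DMSO samples. It rose by a log2 fold change of 0.19 (95% interval 0.09 to 0.28, adjusted p = 0.0273), 1.14 times the control level. The adjusted p was over 0.05 without DMSO replicate 2 (adjusted p = 0.0794), DMSO replicate 3 (0.0883), combination replicate 1 (0.102) or combination replicate 2 (0.0997), where the log2 fold change was 0.19, 0.17, 0.17 and 0.15, and with the fit restricted to these 2 conditions (0.0741).

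IRF4 measured 196, 212 and 177 RPKM with the combination, the widest spread of its 4 conditions (SD 17.4 RPKM), and 2 of the 3 samples were below all DMSO samples. The log2 fold change was -0.10 (95% interval -0.24 to 0.04, adjusted p = 0.370). MYC measured 215, 217 and 194 RPKM and was interleaved with DMSO, with a log2 fold change of 0.00 (95% interval -0.12 to 0.13). IKZF3 measured 22.2, 22.6 and 20.9 RPKM, overlapping with DMSO, with a log2 fold change of -0.06 (95% interval -0.17 to 0.05). With both compounds, IKZF3 and MYC were thus measured near their DMSO level, between the levels of the single compounds.

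Adding AI-10-104 to LEN gave 2 members past the adjusted p and 0 called, beside 4.62% and 1.68% of all genes. Both also passed in voom, where 357 of the 11241 genes passed upward and 317 downward. IKZF3 fell by 0.23 on the log2 scale (95% interval -0.34 to -0.12, adjusted p = 0.0247), and MYC rose by 0.22 (95% interval 0.10 to 0.34, adjusted p = 0.0491). In both genes no sample of the combination overlapped with a LEN sample, and the same was true of IKZF5, which makes 3 of 6 members, against 26.4% of all genes. The adjusted p of MYC was over 0.05 after median-ratio rescaling of the samples (log2 fold change 0.19, adjusted p = 0.0722) and in limma without a variance trend (0.0805). It was also over 0.05 in 7 of the 12 fits without 1 sample (DMSO replicate 2, LEN replicates 1 and 3, AI-10-104 replicates 1 and 3, combination replicates 1 and 2). Its adjusted p ranged from 0.0303 to 0.166 over the 12. That of IKZF3 was over 0.05 in 5 of the 12 (each LEN replicate and combination replicates 1 and 3), with adjusted p from 0.00572 to 0.0849.

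Adding LEN to AI-10-104 again gave 2 members past the adjusted p and 0 called, beside 15% and 3.63% of all genes. IKZF3 rose by 0.24 (95% interval 0.13 to 0.35, adjusted p = 0.0135), and IKZF5 fell by 0.16 on the log2 scale (95% interval -0.26 to -0.06, adjusted p = 0.0422). IKZF5 measured 7.41, 7.40 and 7.37 RPKM with the combination, all below the lowest AI-10-104 sample of 8.002 RPKM. Its adjusted p was over 0.05 in 8 of the 12 fits without 1 sample (DMSO replicate 1, LEN replicates 1 and 3, AI-10-104 replicates 1 and 3, and each combination replicate), with a range from 0.0270 to 0.162. That of IKZF3 was over 0.05 in 3 of the 12 (AI-10-104 replicates 1 and 3 and combination replicate 1), with a range from 0.00128 to 0.0599. At an unadjusted p under 0.05 there were 4 members, beside 3729 of the 11241 genes tested. The others were IRF4 (-0.17, adjusted p = 0.0819, and 0.0422 without combination replicate 2) and MYC (-0.14, adjusted p = 0.103). With a replicate block in the limma fit, IRF4 (adjusted p = 0.0157) and MYC (0.0314) also passed. In voom 3 members passed, IKZF3 upward and IRF4 and MYC downward, beside 1224 genes upward and 750 downward. IKZF5 just missed at 0.0504. The samples did not overlap in 3 of the 6, against 34.1% of all genes.

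Whether the effect of one compound depended on the other was asked with the interaction of the 2 treatments. None of the 6 members passed in limma or in voom. Over all 11241 genes 0 passed in limma (0%), with 1621 at an unadjusted p under 0.05 and 3 past the adjusted p in voom. Without AI-10-104 replicate 2, 415 genes passed with a positive and 125 with a negative term, and again no member did. No member had an unadjusted p under 0.05. The largest interaction terms were those of IRF4 (-0.15, 95% interval -0.34 to 0.04, adjusted p = 0.448) and IKZF5 (-0.14, 95% interval -0.28 to 0.01, adjusted p = 0.367). Summing the log2 fold changes of the single compounds gave 0.25 for IKZF1, where 0.19 was measured, and -0.13 for IKZF3, where -0.06 was measured. For MYC the sum was -0.07 and the measured value 0.00, and for IRF4 the sum was 0.05 and the measured value -0.10.

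Of the 8 genes of the CRBN ligase and of other lenalidomide substrates, all 8 were tested, and with LEN or AI-10-104 alone none passed in limma. At an unadjusted p under 0.05, 1 was higher with LEN and 2 were lower with AI-10-104, and the same numbers passed in voom. Without AI-10-104 replicate 2, 1 of the 8 was called lower with AI-10-104. With the combination 1 was called, beside 2.94% of all genes. It was ZNF692, a zinc finger protein that lenalidomide also marks for degradation, which rose from 13.4 to 16.9 RPKM (log2 fold change 0.33, adjusted p = 0.000847). Its fold was under the threshold without DMSO replicate 3 (0.31, adjusted p = 0.00537), after median-ratio (0.30) or quantile (0.31) scaling and with a pseudocount of 1 (0.31), with the adjusted p still under 0.05 in each. DDB1, the adaptor of the ligase, was at 126, 125, 127 and 121 RPKM with DMSO, LEN, AI-10-104 and the combination. Among the NuRD chromatin remodelling complex, a partner of the IKAROS proteins, 12 of 13 genes were tested and none was called in any comparison of conditions, in limma or in voom. With AI-10-104, 2 rose and 1 fell, beside 235 and 277 of the 11241 genes tested. They were MBD2 (0.20) and the histone binding RBBP4 (0.17) upward and the helicase CHD3 (-0.22) downward. At an unadjusted p under 0.05 there were 3 higher and 4 lower. In voom 3 rose and 2 fell, and the fits without 1 sample gave 1 to 3 higher and 0 to 4 lower, the most without AI-10-104 replicate 2. CHD3 also fell with the combination (-0.21, adjusted p = 0.0309), but not without DMSO replicate 1 or 2 or combination replicate 2 or 3. The helicase CHD4 was at 151, 160, 149 and 155 RPKM in the same order.

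Of the 7 plasma cell genes linked to IRF4, none passed in limma with LEN or with the combination against DMSO. With LEN 1 was higher and 2 lower at an unadjusted p under 0.05 and 1 was lower in voom, and with the combination 1 was higher by either measure. With AI-10-104, 3 of the 7 rose, beside 4.55% of all genes past the adjusted p in either direction, and none was called in limma or voom. Only 1 rose without DMSO replicate 1 or without AI-10-104 replicate 3, and 1 was called without DMSO replicate 2 or without AI-10-104 replicate 2. XBP1, the transcription factor of the secretory program, rose from 509 to 632 RPKM (log2 fold change 0.31, adjusted p = 0.00103), SUB1 from 286 to 327 RPKM (0.19, adjusted p = 0.0283), and the elongation factor ELL2 by 0.21 (adjusted p = 0.0125). Against AI-10-104 alone, the combination was lower in XBP1 (called, -0.35) and SUB1 (-0.21), which fell with 1 other gene of the list, beside 657 of the 11241 genes tested. POU2AF1, the B cell coactivator, was at 135, 144, 129 and 134 RPKM.

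Among the dimer partners and relatives of MYC, 10 of 11 were tested. MAX, the obligate partner, was at 34.7, 35.6, 33.9 and 34.1 RPKM in the 4 conditions in that order. MXD3, which competes with MYC for MAX, was called lower with AI-10-104 (3.41 to 2.20 RPKM, log2 fold change -0.62, adjusted p = 0.00133). It was called higher in the combination than with AI-10-104 alone (0.72, adjusted p = 0.000653), as was MXD4 (0.42, adjusted p = 0.0186). With LEN none of the 10 passed in limma, 2 were higher and 1 lower at an unadjusted p under 0.05, and 1 was higher in voom.

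Of 30 MYC target genes of ribosome production, nucleotide synthesis and growth, 29 were tested and none was called in any comparison of conditions, in limma or in voom. Their log2 fold changes with LEN ran from -0.14 to 0.02 and were mostly below 0, with a median of -0.06 beside -0.00 over all genes tested. None passed the adjusted p in limma or voom, with 4 lower and 0 higher at an unadjusted p under 0.05. With AI-10-104 the median was 0.00, and again none passed in limma, with 5 higher and 3 lower at an unadjusted p under 0.05 and 2 lower in voom. Without AI-10-104 replicate 2, 2 passed upward and 6 downward, and 1 was called. With the combination, in which the MYC message was at its DMSO level, 5 fell, beside 337 of the 11241 genes tested. The median was -0.05 against 0.02 over all genes. The 5 were POLR1B, HSPD1, NCL, NPM1 and SRM, of which NCL (nucleolin) measured 1273 RPKM with DMSO and 1172 RPKM with the combination (-0.12, adjusted p = 0.0329). The fits without 1 sample gave 1 to 5 lower, with 1 left without DMSO replicate 2 or 3 or combination replicate 1 or 2. Against AI-10-104 alone, 11 were lower and 1, PTMA, was higher in the combination (3 to 10 lower and 0 to 7 higher in the fits without 1 sample). Over the 11241 genes tested, 657 were lower and 1026 higher.

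Interferon-induced genes, which rise in many lenalidomide-treated cells, served for contrast, with 9 of 13 tested. With LEN 3 rose (1 to 3 in the fits without 1 sample), beside 110 of the 11241 genes tested. Among the 3 were BST2 (0.30) and STAT2 (0.28), and the median of the 9 was 0.20 against -0.00 over all genes. With AI-10-104, BST2 fell by 0.22 on the log2 scale and the median was -0.13. With the combination 3 rose (1 to 4 in those fits), beside 634 of the 11241 genes tested. IFITM1 was called, from 5.90 to 9.73 RPKM (0.73, adjusted p = 0.0212). No gene of the list was called without DMSO replicate 2 or 3 or combination replicate 1 or 3.

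**Figure D4:**
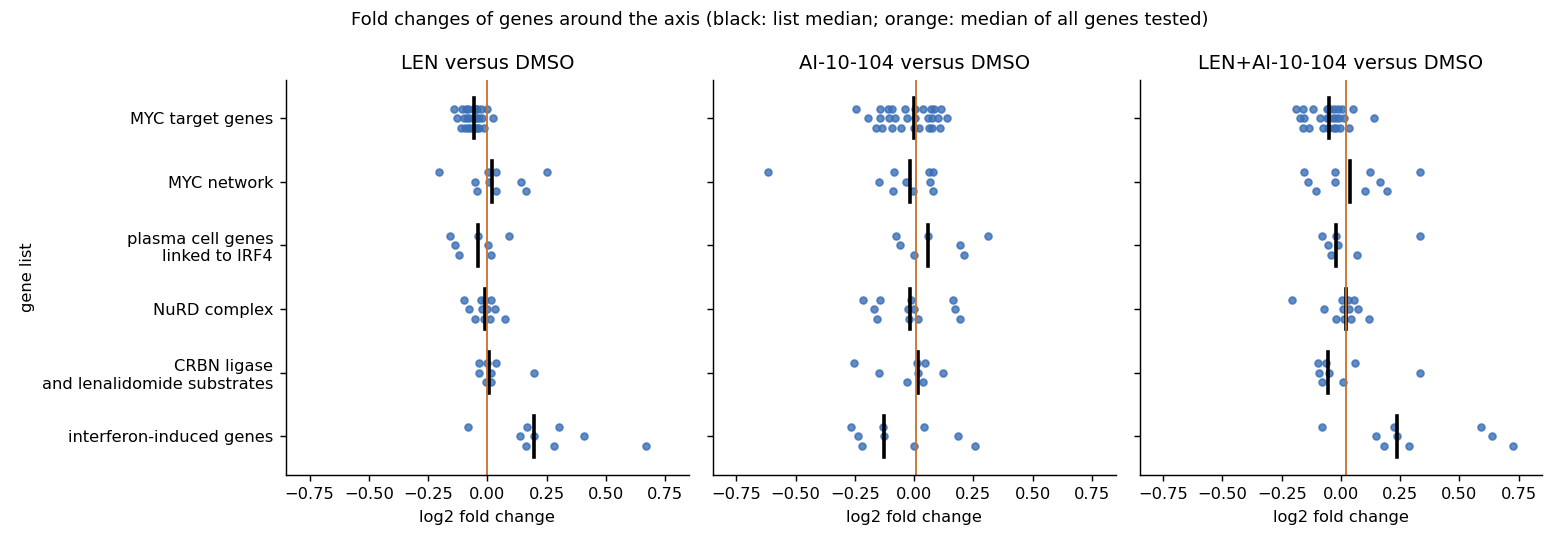
Log2 fold changes against DMSO of the tested genes of 6 lists around the 7 genes; points are genes, black bars list medians, and the orange line the median of all 11241 genes tested. With LEN the 29 MYC target genes lie mostly below 0, from -0.14 to 0.02 (median -0.06). The 9 interferon-induced genes lie mostly to the right with LEN (median 0.20) and with the combination (median 0.24).

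Over the 12 samples, the genes whose levels ran closest to those of IKZF3 by Pearson's r were TCF4 (r = 0.98), a transcription factor of plasmacytoid and B lineage cells, ITGB7 (r = 0.96) and SH3RF3 (r = 0.96). ITGB7, the integrin β7 chain, measured 762 RPKM with DMSO, 933 with LEN, 505 with AI-10-104 and 689 with the combination, the same order of conditions as IKZF3. For MYC they were RITA1 (r = 0.95) and DNMT3B (r = 0.93), for IKZF1 ARHGAP17 (r = 0.92), RHOBTB1 (r = 0.90) and IGF2R (r = 0.89), and for IRF4 RAD18 (r = 0.90), PLTP (r = 0.90) and CSTF2 (r = 0.88). These are among the closest of 11241 genes over the same 12 libraries, and the coefficients describe these samples only.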

How the data were processed

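PolyA RNA of 12 OPM-1 samples was sequenced on directional libraries. The submitters' processing notes name FastQC, STAR, Cuffnorm, DESeq2 and GRCh38. The authors deposited 1 table of RPKM for 38478 genes, with gene lengths from featureCounts per the file headers. Reads were computed back from RPKM and length, and 100.0% of the values were whole within 0.01 reads. Depth was 16352548 to 31386210 reads on genes per sample, 3 samples a condition. The 11241 genes whose mean RPKM was 0.5 or more were fitted with limma 3.58.1 (R 4.3.3) on log2(RPKM + 0.1), with a mean for each of the 4 conditions over all 12 samples, a variance trend and Benjamini-Hochberg adjustment over all genes fitted. The interaction was called by adjusted p alone. The code was tested on simulated data. Alternatives were other pseudocounts and filters, median-ratio and quantile scaling, a replicate block, no variance trend, voom on the reads, the compared conditions only, and leaving out each sample. Annotation was GENCODE 44 and promoters were from RefSeq (GRCh38.p14).

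The members and the gene lists were chosen with earlier results of these data known. Besides the members, the text names list genes called in any comparison, the most abundant of each list (up to 3), and the 3 genes closest to IKZF1, IKZF3, IRF4 and MYC by correlation over the samples. SDC1, the negative markers, CD3E, ELL2, MBD2, RBBP4, CHD3, POLR1B, NPM1 and SRM were named after their values were seen. Some genes that this rule names are not reported here. Raw reads were not analysed here.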

Additional observations from a re-analysis of the deposited data

Results flagged for a closer look

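IKZF5 is given here for the side on which its samples lay, since neither AI-10-104 against DMSO nor the combination against LEN passed. In limma it did fall in the combination against AI-10-104 (log2 fold change -0.16, adjusted p = 0.0422). The AI-10-104 samples were all above the mean of the DMSO samples, and the combination samples were all below the mean of the LEN samples. The log2 fold changes were 0.10 against DMSO and -0.04 against LEN (adjusted p = 0.241 and 0.705), and their difference was -0.14. The direction by samples is a description, and the fitted interaction term did not pass (95% interval -0.28 to 0.01, adjusted p = 0.367).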

How the results depend on the processing

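With the adjusted p alone, without the fold threshold, 1 member passed with AI-10-104 against DMSO, 1 with the combination against DMSO, 2 with the combination against LEN and 2 against AI-10-104, in place of 0. Leaving out 1 sample gave 0 to 1 members called with AI-10-104 against DMSO and 0 in the other planned comparisons. Of 905 member values under an alternative, 834 kept their direction and side of the threshold, 39 no longer passed and 8 newly passed. The 39 all came from the 6 passes of the main fit, and most of the 905 were of results that did not pass there. With a replicate block, the compared conditions only, another filter or a sample outside the comparison left out, the log2 fold change could not differ. The 834 are thus no measure of how stable the direction was. The remaining 24, in 10 comparisons of a gene, changed sign, none of them past the threshold in the main or the other fit (adjusted p of at least 0.575, size at most 0.093). IKZF4 changed sign in the combination against LEN with median-ratio (-0.011) and quantile (-0.049) scaling and against AI-10-104 with these (-0.019 and -0.074) and a pseudocount of 0.01 (-0.000107). MYC did so in the combination against DMSO with median-ratio scaling (-0.024). The others came from leaving out 1 sample, with IKZF2 at -0.016 to 0.086 with AI-10-104, -0.083 to 0.093 with the combination and -0.12 to 0.055 in the combination against AI-10-104. In the same fits IKZF4 ranged from -0.093 to 0.015 (combination against DMSO), -0.042 to 0.066 (against LEN), -0.054 to 0.053 (against AI-10-104) and -0.0031 to 0.10 (interaction). With LEN, IKZF5 ranged from -0.058 to 0.017 and IRF4 from -0.061 to 0.021, and MYC with the combination from -0.039 to 0.055. Other scaling moved the median log2 fold change of all genes by at most 0.033. Deviations from the condition mean correlated weakly between same-numbered samples (mean r = 0.0522 over 18 pairs, 2 of them over 0.1). Over the 36 pairs of different numbers the mean was -0.0261, with 0 over 0.1. Centring on the condition mean ties this value to the former, so it is no separate reference. Whether the numbers pair the samples is thus not settled, and the main fit did not pair them. IRF4 and MYC were lowest in replicate 3 of each condition. With a replicate block, 0 members were called in the planned comparisons, and MYC with LEN (adjusted p = 0.0310) and IRF4 (0.0157) and MYC (0.0314) in the combination against AI-10-104 newly passed the adjusted p. With the filter on any value above 0, IKZF1 in the combination (0.0504), IKZF3 (0.0553) and MYC (0.122) against LEN and IKZF5 against AI-10-104 (0.0732) no longer passed. With the compared conditions only, 5 of the 6 passes were lost (0.0555 to 0.0818). The cause of these shifts was not tested. With 3 samples a condition the 95% intervals of the 6 members tested reached at most 0.35 above and -0.41 below 0 in the planned comparisons, and IKZF2, at 126 to 266 reads, had wider ones.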

Other observations

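The nearest genes on each side of the 7 members whose mean RPKM was 0.5 or more numbered 14, and 1 of them passed the adjusted p in any of the 5 planned comparisons. Of the 70 fits of these neighbours 2 passed, beside 1.13% to 15% of all genes in the single comparisons. GSDMB, next to IKZF3 on chromosome 17, rose with the combination against DMSO (log2 fold change 0.42, adjusted p = 0.00534) and against LEN (0.30, adjusted p = 0.0394), while IKZF3 was near its DMSO level in the former and fell in the latter. MIEN1, on the other side of IKZF3, did not pass (0.11 against DMSO, adjusted p = 0.264).

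SLAMF7, a surface protein of plasma cells and an antibody target in myeloma, was called higher with AI-10-104 (19.3 RPKM with DMSO and 31.1 RPKM with AI-10-104) and lower in the combination (21.8 RPKM) than with AI-10-104 alone.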
